A study of Mus musculus with 39 samples.

Results

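The 10 genes described here make the proteins with which a cell shows peptides to T cells: B2m, H2-K1, H2-D1, Tap1, Tap2, Tapbp, Erap1, Cd74, H2-Aa and H2-Ab1. They were chosen by name for their known part in antigen presentation, and all 10 were among the 13230 genes present in both deposited tables. Livers came from female wild type mice of the FVB strain, and lysate made without detergent and cleared of nuclei was spun through sucrose gradients of 10 to 50%. The 2 gradients were biological replicates, and sequenced fractions gave 17 libraries in the first and 22 in the second, 39 in all. Fractions were numbered from light to dense, and 17 of them were sequenced in both gradients.

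Sedimentation without detergent separates RNAs by the size and density of whatever they are attached to. An RNA held on a membrane fragment travels with that fragment, while an RNA in free polysomes travels with its ribosomes. Presentation on class I molecules uses peptides made by proteasomes in the cytosol, carried into the endoplasmic reticulum, trimmed there and loaded onto a heavy chain paired with B2m. Presentation on class II molecules uses peptides from endosomes and is largely a task of macrophages, dendritic cells and B cells, whereas class I molecules are made by nearly all cells of the liver.

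Values are TPM, the number of transcripts of a gene scaled to a fixed total per library, so each value was a share of the RNA in its fraction, and the amount of RNA in each fraction was not used here. Read depth was not given, and fold changes taken on log2(TPM + 1) understate the change of genes with low TPM. In bulk liver, fewer cells of a kind and less RNA per cell cannot be told apart where the 2 gradients differ. The zones of a gradient all came from the same lysate. Zones were formed from 4 fractions each: light (fractions 4 to 7), middle (10 to 13) and dense (16 to 19), and the zone means of the 2 gradients were compared with limma with Benjamini-Hochberg adjustment over 11754 genes. Over the 10 genes, mean TPM in the first and second gradient ran from 2.70 and 3.37 for Tap1 to 603 and 1154 for B2m.

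The genes lie in a few places of the mouse genome (GRCm38). H2-K1 (chr17:33996017-34000347, minus strand), Tapbp (chr17:33915899-33929292, plus strand), Tap1 (chr17:34187553-34197225, plus strand) and Tap2 (chr17:34203527-34216321, plus strand) stand close together on chromosome 17. H2-Ab1 (chr17:34257689-34269419, plus strand), H2-Aa (chr17:34282744-34287823, minus strand) and H2-D1 (chr17:35262730-35267499, plus strand) follow on the same chromosome. B2m (chr2:122147686-122153083, plus strand), Erap1 (chr13:74639568-74693201, plus strand) and Cd74 (chr18:60803848-60812652, plus strand) lie elsewhere. Transcripts of the main isoforms ran from 860 bases for B2m to 5644 bases for Erap1.

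**Figure D1:**
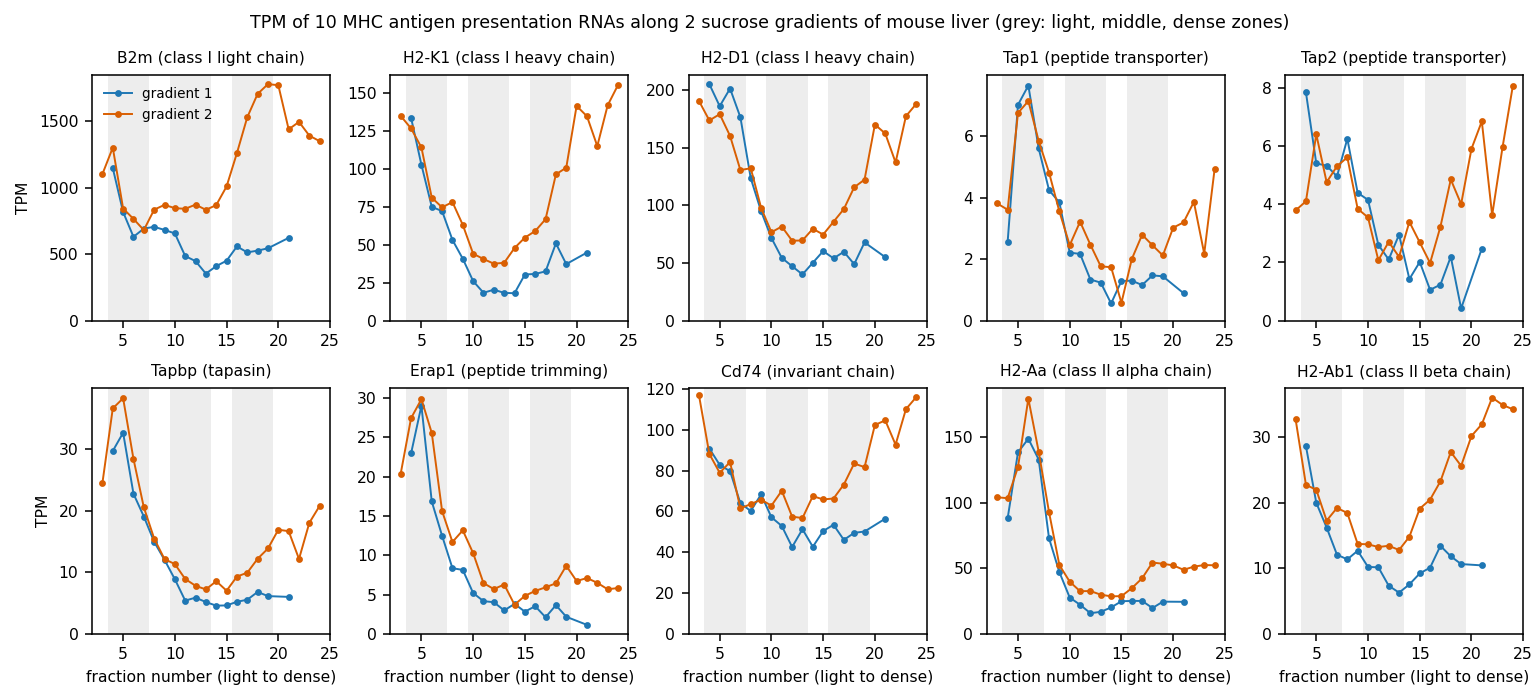
TPM of the 10 antigen presentation RNAs in each sequenced fraction of the 2 gradients, from light to dense.

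Profiles of the 2 gradients were more alike for some of these RNAs than for others. Across the 17 shared fractions, the correlation of a gene's TPM between gradients was 0.971 for H2-Aa, 0.965 for Erap1, 0.961 for Tapbp and 0.940 for Tap1, beside a median of 0.905 over 11308 genes. H2-D1 and H2-K1 had 0.778 and 0.738. Lower values were found for Tap2 (0.458), Cd74 (0.368), H2-Ab1 (0.304) and B2m (0.0138). Neighboring fractions share material, so the 17 points are not independent and no p value is given. Rank correlations of the last 4 were 0.537, 0.206, 0.503 and -0.145 in the same order. Those of the others were 0.745 for H2-Aa, 0.735 for Erap1, 0.902 for Tapbp, 0.804 for Tap1, 0.721 for H2-D1 and 0.848 for H2-K1. By both kinds, H2-Aa, Erap1, Tapbp, Tap1, H2-D1 and H2-K1 thus had higher values than Tap2, Cd74, H2-Ab1 and B2m.

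Where an RNA sits on average can be written as its center, the mean fraction number weighted by TPM over the shared fractions. Class I chains had centers of 11.1 and 13.2 (B2m), 10.0 and 12.1 (H2-K1) and 9.55 and 11.5 (H2-D1) in the first and second gradient. Among the loading and trimming genes the lightest center belonged to Erap1 (8.01 and 9.27), followed by Tapbp (8.91 and 10.1), Tap1 (9.07 and 10.2) and Tap2 (9.43 and 11.8). With log2 weights Erap1 (10.2 and 11.1) was still the lightest of these, but Tapbp (10.97 and 11.5) was denser than Tap1 (10.3 and 11.1) in both gradients. Within class II, H2-Aa (8.71 and 9.80) was lighter in both gradients than H2-Ab1 (10.8 and 12.7) and Cd74 (11.2 and 12.3). The center of each of the 10 genes lay at least 1 fraction denser in the second gradient, as did 10.8% of 11306 genes, and a denser center of any size was found in 41.9%. That threshold of 1 fraction was chosen after the values were seen. Shifts of single members ran from 1.09 (H2-Aa) to 2.33 (Tap2), whereas the median over all genes was -0.0960. With log2 values as weights the shifts were smaller, from 0.236 (Cd74) to 1.36 (Tap2), so that only Tap2 passed the threshold, as did 2.67% of all genes, while all 10 members and 40.1% of all genes had a denser center of any size. With 1 pair of gradients, a difference between animals and a difference between runs cannot be separated.

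Light fractions carry RNAs on small or buoyant structures, and middle fractions carry heavier ones. A lower share in the middle than in the light zone therefore means that the RNA made up less of the RNA found with heavier structures. Of the 10 genes, 6 were called lower in the middle than in the light zone by limma with Benjamini-Hochberg at an adjusted p below 0.05, namely H2-K1, H2-D1, Tap1, Tapbp, Erap1 and H2-Aa. For comparison, 47.5% of all genes were called, 24.1% as lower and 23.5% as higher. The fit with gradients as blocks called 8 of the 10 members and 72.1% of all genes. Median changes were -1.29 log2 units over the 10 genes and 0.05 over all genes. The mean change was below 0 for all 10, whereas it was above 0 in 51.8% of all genes. All 10 also had a lower value in the middle zone in both gradients, for which no share of all genes is given.

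The dense zone holds heavier structures than the middle zone. A comparison with the light zone takes the widest contrast of the 3 zones, and a gene may be low in the middle and rise again beyond it. Of the 10 genes, 6 were called lower in the dense than in the light zone (limma with Benjamini-Hochberg): H2-D1, Tap1, Tap2, Tapbp, Erap1 and H2-Aa. Among all genes 61.9% were called, 39.6% as lower and 22.3% as higher. These shares depended on the scaling. Under quantile normalization 3512 of 11754 genes were called lower and 3603 higher, and 4 members were called. None of the members was called higher by limma, with 6 called at unadjusted p below 0.05 in either direction and 7 in the fit with gradients as blocks, which called 80.6% of all genes. Median changes were -1.12 for the 10 genes and -0.43 for all genes. The members called in only 1 of these comparisons were H2-K1 and Tap2, and the difference between them and the others was not tested.

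**Figure D2:**
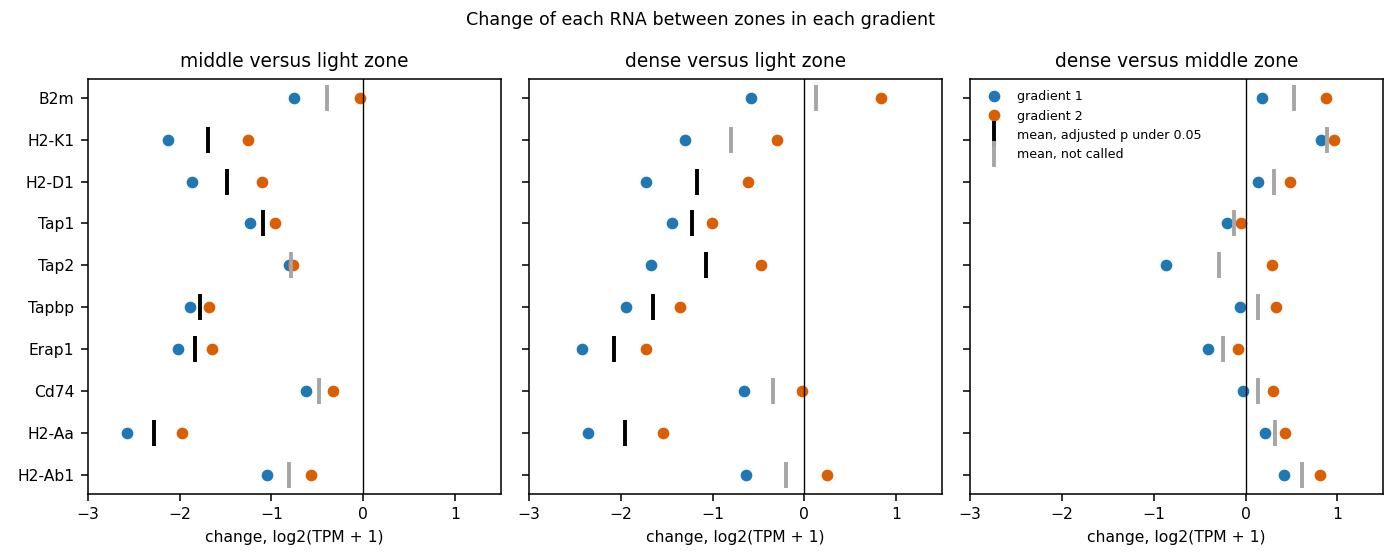
Change of each antigen presentation RNA between density zones, with the value of each gradient and their mean.

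B2m is the light chain shared by class I molecules, made as a small secretory protein that pairs with the heavy chain in the endoplasmic reticulum. In the light zone the first and second gradient had 822 and 898 TPM, in the middle zone 486 and 848, and in the dense zone 536 and 1569. The lowest, median and highest values over 8 libraries were 630.5, 791 and 1302 TPM in the light zone and 513, 909 and 1779 in the dense zone, so the groups overlapped. B2m thus had its lowest dense values in the first gradient, and its single highest value was in the dense zone of the second (fraction 19). The dense versus light change was 0.13 log2 units (SE 0.54, adjusted p 0.848 in limma with Benjamini-Hochberg), -0.58 in the first gradient and 0.84 in the second, and it was -0.15 after quantile normalization. For middle versus light it was -0.40 (adjusted p 0.571). In the dense versus light change, no other member had gradients as far apart as B2m.

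H2-K1 encodes the K heavy chain, which spans the membrane and holds the peptide. It had 95.9 and 99.2 TPM in the light zone, 20.8 and 40.1 in the middle zone and 37.8 and 80.8 in the dense zone. Over 8 libraries per zone, the lowest, median and highest values were 72.2, 91.9 and 134 TPM (light), 18.3, 31.8 and 44.1 (middle) and 30.8, 55.0 and 101 (dense). Light and middle libraries did not overlap, while light and dense libraries did. The 8 libraries of a zone were 4 neighboring fractions of each of 2 gradients, so they are not 8 replicates. How many of all genes separate in this way was not counted, here or for the members below. H2-K1 RNA fell by 1.69 log2 units from light to middle (adjusted p 0.0239, limma with Benjamini-Hochberg), a call kept in 34 of 37 alternatives (adjusted p from 0.00300 to 0.123) and lost without the light zone mean of either gradient or the middle zone mean of the first. For dense versus light the change of H2-K1 was -0.80 (adjusted p 0.161), with -1.30 and -0.29 in the 2 gradients. In the fit with gradients as blocks the dense versus light change was called (adjusted p 0.0344, with a range of 0.0344 to 0.600 over all alternatives), as it was without the dense zone mean of the second gradient (adjusted p 0.0351). In the second gradient the values ran from 127 TPM in fraction 4 through 37.5 in fraction 12 to 155 in fraction 24, the densest sequenced. In the first gradient the lowest H2-K1 value was 18.0 TPM in fraction 14, so both profiles had their minimum between the light and dense zones.

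H2-D1 encodes the D heavy chain, close kin of the K chain. Its RNA stood at 192 and 161 TPM in the light zone, 53.3 and 74.3 in the middle zone and 57.6 and 105 in the dense zone. Each of the 8 light libraries (lowest 131, median 178, highest 205 TPM) was above each of the 8 dense ones (lowest 49.0, median 76.8, highest 122). Those 8 are neighboring fractions of 2 gradients rather than replicates, and no share of all genes is given. The RNA fell by 1.17 log2 units from light to dense (adjusted p 0.0240, limma with Benjamini-Hochberg), by 1.73 and 0.61 in the single gradients. From light to middle it fell by 1.48 (adjusted p 0.0145), a call kept in 34 of 37 alternatives (adjusted p from 0.00542 to 0.0991). Without the light zone mean of the first gradient, adjusted p for dense versus light was 0.132, and the call was kept in 34 of 37 alternatives (adjusted p from 0.00655 to 0.132). H2-D1 in the second gradient had 69.3 TPM in fraction 12 and 188 in fraction 24, so it too was high at both ends there.

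Tap1 and Tap2 form the transporter that carries peptides from the cytosol into the endoplasmic reticulum, and both RNAs were scarce. Tap1 had 5.70 and 5.83 TPM in the light zone, 1.74 and 2.47 in the middle zone and 1.34 and 2.34 in the dense zone. The light libraries of Tap1 (lowest 2.56, median 6.29, highest 7.64 TPM) overlapped the dense ones (1.16, 1.73 and 2.79) at the lowest light value only, from fraction 4 of the first gradient. It fell by 1.22 log2 units from light to dense (adjusted p 0.00816, limma with Benjamini-Hochberg) and by 1.10 from light to middle (adjusted p 0.0167). Both Tap1 calls were lost under quantile normalization, with changes of -0.61 (adjusted p 0.103; range over alternatives 0.00116 to 0.103) and -0.81 (adjusted p 0.0536; range 0.00237 to 0.105), and the latter was kept in 32 of 36 alternatives. That scaling moved the median dense versus light change of all genes by 0.374, from -0.43 to -0.05. Relative to the all-gene median, the dense versus light change of Tap1 was -0.80 before and -0.55 after.

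Tap2 had 5.89 and 5.15 TPM in the light zone, 2.96 and 2.63 in the middle zone and 1.23 and 3.52 in the dense zone. Its 8 light libraries ran from 4.11 over a median of 5.32 to 7.85 TPM, and its dense libraries from 0.418 over 2.09 to 4.86, with overlap. Tap2 fell by 1.07 log2 units from light to dense (adjusted p 0.0422, limma with Benjamini-Hochberg), with -1.67 and -0.47 in the gradients. The call was lost when single libraries were left out: fraction 4 of the first gradient (adjusted p 0.0516), fraction 5 of the second (0.0503) or fraction 16 of the second (0.0804), within a range over alternatives of 0.00493 to 0.298. Quantile normalization gave -0.46 (adjusted p 0.298, the upper end of that range) and also lost the call, as did leaving out any of 5 of the 6 zone means, with the smallest change of these at -0.55 without the dense zone mean of the first gradient. For middle versus light the change of Tap2 was -0.79 (adjusted p 0.121), and it was called without the dense zone mean of either gradient (adjusted p 0.0276 and 0.0272, range over alternatives 0.0272 to 0.324). The dense versus light call of Tap2 was kept in 25 of 36 alternatives, so it depended on the processing more than that of H2-Aa.

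Tapbp encodes tapasin, which bridges the transporter and the empty heavy chain. Its RNA had 26.1 and 30.97 TPM in the light zone, 6.32 and 8.81 in the middle zone and 5.92 and 11.3 in the dense zone. The lowest light library (19.1 TPM, with a median of 29.1 and a highest of 38.3) lay above the highest dense library (13.9, with a median of 8.05 and a lowest of 5.20). For this separation too, no share of all genes is given. Tapbp fell by 1.65 log2 units from light to dense (adjusted p 0.00708, limma with Benjamini-Hochberg) and by 1.78 from light to middle (adjusted p 0.00794), the latter kept in 35 of 37 alternatives (adjusted p from 0.000670 to 0.0681). The highest TPM was in fraction 5 of both gradients, 32.7 in the first and 38.3 in the second. Without the light zone mean of the second gradient, adjusted p for dense versus light was 0.0605, the highest of its range from 0.000502 to 0.0605.

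Erap1 encodes the aminopeptidase that trims peptides inside the endoplasmic reticulum. Light, middle and dense zones had 20.3, 4.09 and 2.86 TPM in the first gradient and 24.6, 7.17 and 6.61 in the second. Light libraries (lowest 12.5, median 24.3, highest 29.9 TPM) were all above dense libraries (lowest 2.10, median 4.55, highest 8.66). Again the share of all genes with such a separation was not counted. From light to dense, Erap1 fell by 2.08 log2 units (adjusted p 0.00628, limma with Benjamini-Hochberg), by 2.43 and 1.73 in the gradients, and from light to middle by 1.83 (adjusted p 0.0139), the latter kept in 34 of 37 alternatives (adjusted p from 0.000851 to 0.0979). As with Tapbp, its peak was in fraction 5 of both gradients, at 29.0 and 29.9 TPM. Without the light zone mean of the second gradient, adjusted p for dense versus light was 0.0548, within a range over alternatives of 0.000337 to 0.0548.

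H2-Aa encodes the alpha chain of the class II molecule I-A, which pairs with the beta chain from H2-Ab1. In fractions 4, 5, 6 and 7 it had 88.0, 138, 149 and 133 TPM in the first gradient and 103, 127, 179 and 139 in the second. Light zone means were 127 and 137 TPM, middle means 20.6 and 33.6 and dense means 23.6 and 46.2. Every light library was above every dense library (lowest 19.6, median 29.9, highest 54.3 TPM) and every middle library (15.7, 28.7 and 39.7). As above, these libraries are neighboring fractions of 2 gradients, and the share of all genes that separate so is not given. H2-Aa fell by 2.28 log2 units from light to middle (adjusted p 0.00534, limma with Benjamini-Hochberg) and by 1.95 from light to dense (adjusted p 0.00593). Both calls held in all 37 alternatives, with adjusted p from 0.000637 to 0.0480 and from 0.000607 to 0.0486. H2-Aa was the only member whose 2 calls were kept throughout.

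H2-Ab1, the partner of H2-Aa, had a different profile. It had 19.3 and 20.3 TPM in the light zone, 8.50 and 13.3 in the middle zone and 11.5 and 24.3 in the dense zone. Light libraries (lowest 12.1, median 19.6, highest 28.7 TPM) overlapped dense libraries (10.1, 17.0 and 27.8) nearly in full. The dense versus light change of H2-Ab1 was -0.20 log2 units (SE 0.39, adjusted p 0.681, limma with Benjamini-Hochberg), -0.64 and 0.25 in the gradients, and 0.08 after quantile normalization. For middle versus light it was -0.81 (adjusted p 0.136), and it was called in the fit with gradients as blocks (adjusted p 0.0215, range over alternatives 0.0215 to 0.456) and without the dense zone mean of the first gradient (adjusted p 0.0493). The difference between H2-Aa and H2-Ab1 in call status was not tested, and their ratios are given below.

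Cd74 encodes the invariant chain, which fills the class II groove on the way to the endosome. It had the most even class II profile, with 79.3 and 78.2 TPM in the light zone, 51.0 and 61.8 in the middle zone and 49.8 and 76.2 in the dense zone. Light libraries had a lowest, median and highest value of 61.4, 81.3 and 90.8 TPM, and dense libraries of 46.0, 59.9 and 83.5. The 2 sets overlapped. Its dense versus light change was -0.34 log2 units (SE 0.24, adjusted p 0.257, limma with Benjamini-Hochberg), with -0.65 and -0.03 in the gradients. Without the dense zone mean of the second gradient it was -0.64 and called (adjusted p 0.0444, range over alternatives 0.0444 to 0.878). For middle versus light the change was -0.48 (adjusted p 0.153), and the fit with gradients as blocks called it (adjusted p 0.0471, range over alternatives 0.0471 to 0.470).

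Middle and dense zones are both rich in heavier structures, and a comparison of the 2 asks whether an RNA goes on changing beyond the middle. None of the members was called (0 of 10 by limma with Benjamini-Hochberg, and 0 at unadjusted p below 0.05), where 27.3% of all genes were called, 22.5% as lower and 4.79% as higher. Under quantile normalization 1607 of 11754 genes were called lower and 1213 higher, with 0 members called. In the fit with gradients as blocks 1 of the 10 was called, H2-K1, beside 53.4% of all genes. H2-K1 had a change of 0.89 log2 units (adjusted p 0.193, and 0.0358 in the blocked fit, with a range over alternatives of 0.0358 to 0.586). The median was 0.22 over the 10 genes and -0.28 over all genes. Values were above 0 for 7 members and for 32.6% of all genes, and below 0 for Tap1, Tap2 and Erap1. Both gradients had the same sign for 7 members, for which no share of all genes is given. Under quantile normalization Tap1, Tap2 and Erap1 turned to values above 0 (0.20, 0.0587 and 0.11), but that scaling moved the all-gene median from -0.28 to 0.0348. Relative to the median, they were at 0.152, -0.0074 and 0.0321 before and at 0.167, 0.0239 and 0.0765 after. In fractions 22 to 24, sequenced in the second gradient only, mean TPM was 1412 for B2m, 137 for H2-K1, 167 for H2-D1, 106 for Cd74 and 35.1 for H2-Ab1. In the same fractions it was 5.99 for Erap1, 17.0 for Tapbp and 51.9 for H2-Aa, each below its light zone mean in that gradient, as was Tap1 at 3.65. Tap2 was at 5.89 there, above its light zone mean of 5.15, but its libraries ran from 3.63 in fraction 22, below that mean, to 8.08 in fraction 24.

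Ratios of 2 RNAs within a library do not depend on a scale factor that is the same for all its genes, whereas quantile normalization can change them. The ratio of H2-Aa to H2-Ab1 ran from 3.07 to 11.0 over the light fractions of the first gradient and from 4.54 to 10.4 in the second. In the dense zone the same ratio was 1.66 to 2.48 and 1.70 to 2.08, and in fractions 22 to 24 of the second gradient it was 1.42 to 1.52. The 2 chains of the same molecule were thus present in unlike proportions along both gradients, with no overlap between light and dense fractions. H2-Aa to Cd74 went the same way, from 0.969 to 2.08 and 1.17 to 2.26 in the light zone to 0.397 to 0.544 and 0.524 to 0.653 in the dense zone. By contrast, H2-Ab1 to Cd74 was 0.189 to 0.316 and 0.205 to 0.313 in the light zone and 0.189 to 0.292 and 0.309 to 0.333 in the dense zone. Differences in these ratios were not tested for significance.

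Among class I chains, the light chain and the heavy chains did not keep a fixed proportion. B2m to H2-K1 was 7.95 to 9.59 and 7.38 to 10.3 in the light zone, and 19.3 to 26.5 and 19.2 to 23.3 in the middle zone. In the dense zone B2m to H2-K1 was 10.35 to 18.1 and 17.6 to 22.9, and in fractions 22 to 24 of the second gradient 8.69 to 13.0, closer to the light zone again. B2m to H2-D1 was 3.13 to 5.60 and 4.71 to 7.50 in the light zone and 8.03 to 10.8 and 14.6 to 15.8 in the dense zone. Light libraries thus had more H2-K1 RNA for each B2m RNA than middle ones, and more H2-D1 RNA than dense ones, in both gradients. H2-K1 to H2-D1 overlapped between the light (0.373 to 0.652 and 0.506 to 0.730) and middle zone (0.338 to 0.457 and 0.498 to 0.576), and within each gradient all dense libraries were above the middle ones (0.544 to 1.04 and 0.689 to 0.834).

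**Figure D3:**
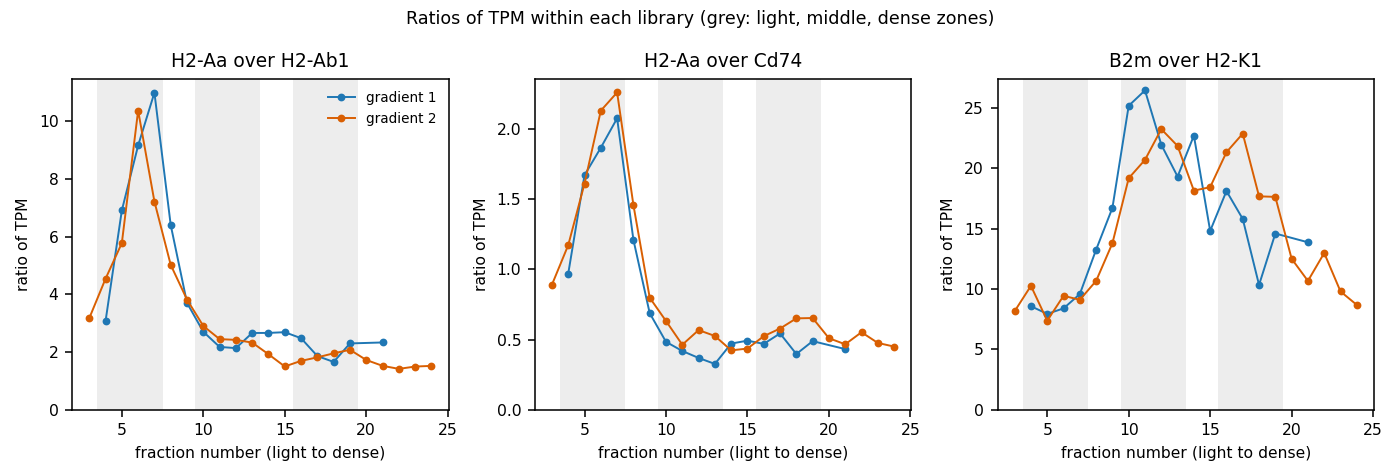
Ratios of H2-Aa to H2-Ab1, H2-Aa to Cd74 and B2m to H2-K1 within each library along both gradients.

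RNAs of proteins that work together may or may not sediment together, and correlations of the 10 profiles with each other describe this. Over 45 pairs and 17 fractions, the median correlation was 0.845 in the first gradient (0.471 to 0.983) and 0.596 in the second (-0.386 to 0.962). All pairs share the same libraries and neighboring fractions, so these values are not independent. Tapbp and Erap1 had 0.983 and 0.962, H2-Aa and Tap1 0.943 and 0.921, and H2-K1 and H2-D1 0.894 and 0.903. H2-Ab1 had 0.936 and 0.839 with H2-K1, 0.873 and 0.811 with Cd74 and 0.620 and 0.131 with H2-Aa, and by rank 0.880 and 0.843, 0.664 and 0.711, and 0.767 and 0.451. B2m and Tap1 had 0.471 and -0.386, the lowest pair in the second gradient. By rank, H2-Aa had 0.762 and 0.821 with Tap1 and 0.767 and 0.451 with H2-Ab1, so the order of these pairs in the first gradient depended on the kind of correlation.

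Genes with the most similar profiles were looked up among 6599 genes with a mean of at least 10 TPM in each gradient, ranked by the lower of the 2 correlations. For H2-Aa these were Serpina1c (0.979), Asgr1 (0.977) and Erp29 (0.977), and for Tapbp they were Cd1d1 (0.991), Alb (0.984) and Abcb11 (0.984). Erap1 was closest to Slc16a12, Ptprd and Slco1a1, each with 0.986. The genes closest to Tap1 were Slc12a7 (0.962), St3gal1 (0.954) and Prkcsh (0.9475), and those closest to Tap2 were Retsat (0.871), Ctsl (0.870) and Serpinf1 (0.860). H2-D1 was closest to Cyp2a5 (0.973), Apoa5 (0.970) and Ctsd (0.966), and H2-K1 to Cyp1a2 (0.928), Tmed9 (0.9225) and Cyp2a5 (0.907). B2m had Atp6v0c-ps2 (0.857), Ly6e (0.839) and Mettl7b (0.813), whereas H2-Ab1 had Ly6e (0.894), Bsg (0.877) and Mettl7b (0.865). For Cd74 the closest gene was itself a member, H2-K1, at 0.865, followed by Ly6e (0.826) and Ctsz (0.826). What these genes share was not tested.

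Other genes of the same or related roles place the members among their neighbors. Beside H2-K1 (-0.80) and H2-D1 (-1.17), 6 of 12 other genes with class I folds were lower in the dense than in the light zone (limma with Benjamini-Hochberg), with a median of -1.03, where 39.6% of all genes were called lower. A list of 7 genes joined class I loading with general protein folding and entry in the endoplasmic reticulum. Of these, 4 were lower in the dense than in the light zone (limma with Benjamini-Hochberg), among them Canx (-2.90), Calr (-2.16) and Hspa5 (-1.87). In the same list 1 was higher, Sec61b (0.93). Erap1, at -2.08, lay among the lower genes of that list, and Tapbp, at -1.65, above them. Genes that make or trim class I peptides in the cytosol went the other way, with 8 of 9 higher beside 22.3% of all genes, among them Psme1 (3.14), Psme2 (2.62), Lap3 (2.52) and Psmb8 (2.01). Tap1, at the end of the same path, had a change of -1.22. The summed TPM of Tap1, Tap2, Tapbp and Erap1 was 58.0 and 66.6 in the light zone and 11.3 and 23.8 in the dense zone, whereas that of the cytosolic genes was 366 and 420 in the light and 2228 and 2044 in the dense zone. Differences between the lists were not tested.

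Other genes of the class II pathway included lysosomal enzymes beside class II chains. Of 9 tested, 4 were lower in the dense zone (limma with Benjamini-Hochberg), beside 39.6% of all genes. The median of the 9 was -0.88, and the 4 included the enzymes Ctsb (-1.82) and Lgmn (-0.97). H2-Aa, at -1.95, was below Ctsb and Lgmn, and H2-Ab1 (-0.20) and Cd74 (-0.34) were above. Ifi30, second of the list in TPM, had 24.4 and 26.3 TPM in the middle zone. It had 14.7 and 18.0 in the light and 13.6 and 16.4 in the dense zone. Cd74, H2-Aa and H2-Ab1 together had 226 and 236 TPM in the light zone, 80.0 and 109 in the middle zone and 84.9 and 147 in the dense zone. Of 13 regulators of these genes, 3 were higher and 3 lower, beside 22.3% and 39.6% of all genes. Among them were Ciita, which drives class II genes, at 0.04 and Nlrc5, which drives class I genes, at -0.33. Both were uncalled, and both were named for their role after the values were seen.

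Cell types of the liver were looked at through marker genes, and RNAs of secreted proteins served for comparison. Of 10 hepatocyte markers 6 were lower and 2 higher in the dense than in the light zone (limma with Benjamini-Hochberg), with a median of -1.25. Of 14 secreted plasma proteins 12 were lower, with a median of -1.80. Among all genes 39.6% were lower and 22.3% higher. H2-Aa (-1.95) and Erap1 (-2.08) were below the medians of both lists, and H2-Ab1 (-0.20) and Cd74 (-0.34) above. The 2 lists are not separate, since Alb, Apoa1, Apob, Ttr and Trf are in both. Of 11 Kupffer cell markers 6 were lower in the dense than in the light zone in limma with Benjamini-Hochberg, beside 39.6% of all genes. Their summed TPM was 252 and 233 in the light zone and 111 and 140 in the dense zone, with Cd5l the most abundant (76.0 and 68.4 in the light zone) and at 10.3 and 15.0 in the dense zone. The next most abundant, C1qc (-0.14), C1qb (-0.19) and Clec4f (-0.23), were not called. Among 8 dendritic cell markers only Zbtb46 could be tested, Flt3, Cd209a, Itgax, Siglech and Ccr7 were not in both tables, Xcr1 was at 0 in 4 of 39 libraries and Clec9a in 3, and the sum was 6.96 and 4.71 TPM in the light zone and 6.86 and 3.25 in the dense zone. Zbtb46 made up most of that sum, and the other 2 had lower values in the dense zone: Xcr1 had 1.33 and 1.15 TPM in the light and 0.0539 and 0.129 in the dense zone, and Clec9a 1.12 and 0.974 in the light and 0.225 and 0.368 in the dense zone. Among 7 endothelial markers 5 of 6 tested were lower, with sums of 94.7 and 63.2 TPM in the light and 42.4 and 34.4 in the dense zone, Clec4g the most abundant and the only one of the 6 not called (-0.65), and Lyve1 was at 0 in 5 libraries. The part of these cells in the results for H2-Aa, H2-Ab1 and Cd74 was not tested.

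**Figure D4:**
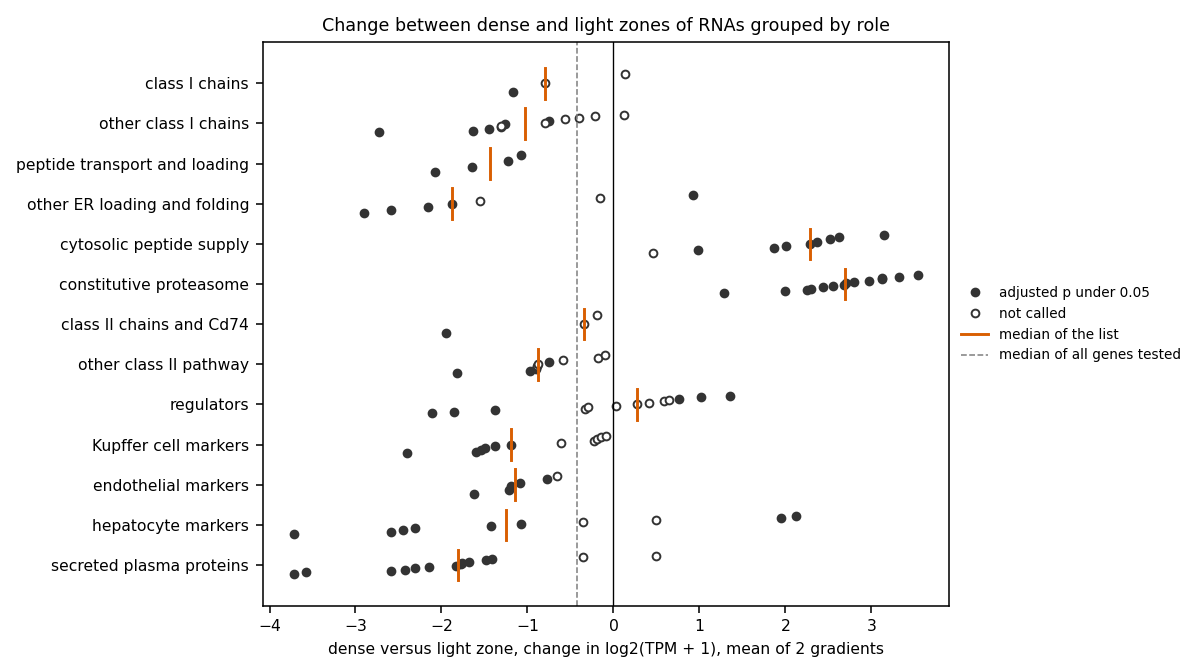
Dense versus light change of genes grouped by role in antigen presentation and of cell type markers.

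Class I genes resemble each other in sequence, so reads may be shared between them when transcripts are counted. Of the 31-base words in H2-K1 transcripts, 735 of 3230 (22.8%) were also found in transcripts of other genes, 358 of them in H2-D1. For H2-D1 it was 697 of 2591 (26.9%), and for B2m 0 of 830. Tapbp shared 26.9% of its words, mostly with Gm19412, Tap2 14.3%, mostly with Gm15821, and Erap1 11.0%, mostly with Cast. Fewer were shared by Tap1 (4.09%), Cd74 (1.41%), H2-Aa (0.911%) and H2-Ab1 (0.267%). Words were counted in GENCODE transcripts, whereas the TPM were made with a RefSeq index of mm10, so sharing with models such as Gm19412 or Gm15821 may differ in that index. In GENCODE, the sequences of H2-Aa, H2-Ab1, Cd74 and B2m were nearly all their own, and how sharing affected the TPM of H2-K1, H2-D1 and Tapbp was not tested. The mice were FVB and the reference is C57BL/6J, whose class I and class II alleles differ, and the effect of this on TPM was not tested.

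Coding sequences of H2-K1 and H2-D1 were identical at 985 aligned bases, with 92 mismatches and 39 gaps, an identity of 88.3%. Their longest identical stretch was 91 bases in exon 4 of both genes. It lay at chr17:33997343-33997433 on the minus strand for H2-K1 (coding bases 738 to 828) and at chr17:35265911-35266001 on the plus strand for H2-D1 (coding bases 747 to 837), both in GRCm38. The stretch is shown because a read that falls within it cannot be assigned to H2-K1 or H2-D1 by its sequence.

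H2-K1 and H2-D1 shared stretch: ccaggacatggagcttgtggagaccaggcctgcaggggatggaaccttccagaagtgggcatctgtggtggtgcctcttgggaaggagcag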

How the data were processed

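The TPM values deposited by the authors were used as given, made according to their notes with bcl2fastq 2.16.0.10 and kallisto on mm10, and read depth was unknown. Gene names present in both tables were kept. Zone means of log2(TPM + 1) over fractions 4 to 7, 10 to 13 and 16 to 19 were compared in limma 3.58.1 (R 4.3.3) with empirical Bayes and a mean-variance trend, with Benjamini-Hochberg adjustment over 11754 genes with a mean of at least 1 TPM, called at adjusted p below 0.05. Tables and figures were made in Python 3.11.15 with NumPy 2.4.6, pandas 2.3.3, matplotlib 3.10.9 and Biopython 1.88. Each liver lysate supplied all 3 zones of its gradient, and over 11754 genes the deviations of a gradient from the mean of each zone correlated at 0.665 (light and middle), 0.540 (light and dense) and 0.798 (middle and dense), so a fit with gradients as blocks was tried. Other alternatives were quantile normalization, rescaling without the 50 most abundant genes, pseudocounts, TPM thresholds, 2 central fractions per zone, and leaving out zone means or single libraries. Leaving out values of a zone outside a comparison alters its p values but not its change, so counts of alternatives that kept a call include such fits. Members and lists were chosen with earlier results of these data known. Named genes were the members, the 3 genes with the highest likeness to each member, up to 4 genes of a list with the highest mean TPM, and marker genes. The code was tested on simulated data. Annotation was GENCODE M21 on GRCm38, from C57BL/6J, whereas the mice were FVB, and class I genes of the H2 region share sequence, so their TPM are uncertain.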

Additional observations from a re-analysis of the deposited data

How the results depend on the processing

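In limma with Benjamini-Hochberg, 7274 genes were called for dense versus light, 5589 for middle versus light and 3208 for dense versus middle. With a mean of at least 10 TPM, 7233 genes were tested and 4798 were called for dense versus light, and Tap1 and Tap2 were not tested. With gradients as blocks, 9468, 8478 and 6275 genes and 7, 8 and 1 members were called, the added ones being H2-K1 (dense versus light, dense versus middle), Cd74 and H2-Ab1 (both middle versus light). Quantile normalization gave dense versus light changes of -0.15 for B2m and 0.0830 for H2-Ab1, and dense versus middle changes of 0.20 for Tap1, 0.0587 for Tap2 and 0.11 for Erap1, all of the other sign. It shifted the all-gene median by 0.374, 0.0375 and 0.314 in the 3 comparisons. With 2 central fractions per zone, Tap2 was at 0.12 for dense versus middle and its dense versus light call was lost, as it was with a pseudocount of 0.1. With 1 zone mean or 1 library left out, called genes ran from 2913 to 6042 for middle versus light and from 0 (middle zone of either gradient left out) to 3496 (fraction 13 of the first gradient left out) for dense versus middle, and called members from 2 (light zone of the second gradient left out) to 8 for dense versus light and from 1 (light zone of either gradient left out) to 8 for middle versus light. With 1 library left out, 7090 to 7400 genes were called for dense versus light. The ends left out fraction 4 of the first gradient (5 members called) and fraction 19 of the second (6 members called). The fewest and the most members called for dense versus light came from fits without a zone mean. Every fit of that kind called fewer than the 7274 genes named above. A zone left with 1 sample was assumed to vary like the others. Over all fits with 1 zone mean or 1 library left out, changes of B2m ran from -0.64 to 0.90 (dense versus light), -0.81 to 0.0243 (middle versus light) and -0.24 to 1.29 (dense versus middle). Changes of H2-Ab1 ran from -0.70 to 0.31 (dense versus light). For dense versus middle they ran from -0.12 to 0.73 for H2-D1, -0.38 to 0.13 for Tap1, -0.81 to 0.23 for Tap2, -0.28 to 0.55 for Tapbp, -0.74 to 0.25 for Erap1, -0.16 to 0.43 for Cd74 and -0.14 to 0.79 for H2-Aa. Of 240 member values with single libraries left out, 237 kept direction and call for dense versus light. The 3 others were Tap2 without fraction 4 of the first gradient or fraction 5 or 16 of the second. Among the 240 are values without a middle zone library, which cannot alter a dense versus light change, only its adjusted p. The cause of the differences between fits was not tested.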
